A study of Caenorhabditis elegans with 2 samples.

Results

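Autosomal intronic regions with ELT-3 signal were taken from the pooled list of a chromatin immunoprecipitation sequencing (ChIP-seq) experiment in the nematode Caenorhabditis elegans. The authors label this list as peaks and background, so a region in it is not by itself a called binding site. The 1500 strongest of 21761 pooled regions were selected on the authors' pooled signal. Of these, 330 lay on an autosome with the summit, the position of highest signal, in an intron of a protein-coding gene, in no exon of such a gene, and outside the window from 1000 bp upstream to 200 bp downstream of every protein-coding gene's 5′ end. They are called intronic regions below. Their introns belonged to 275 genes, called hosts, which are 1.83% of the 15059 autosomal protein-coding genes with intronic bases that meet the same position rule (usable bases). A further 4955 regions past rank 1500 met the position rule too and are called weaker intronic regions.

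The series has 1 group and no comparison between conditions. Per the labels, whole L3 larvae of mixed sex were used, from strain OP75, which carries the unc-119(ed3) mutation on chromosome III and the integrated transgene wgIs75 for an ELT-3 fusion with green fluorescent protein. There were 2 biological replicates with 1 library each. The antibody's target is given as elt-3, while the description names the fusion, so the epitope is unclear, and the size range of 150 to 350 has no unit. The strain carries additional elt-3 sequence on the transgene, but elt-3 is on the X chromosome and is no host here. A control experiment named in the labels was not used here, and no source used here gives the libraries' read depth. The animals were whole, so binding in one cell type cannot be told apart from binding in several.

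ELT-3 belongs to the GATA family of transcription factors and acts in the worm epidermis, the tissue that secretes the cuticle and replaces it at each moult. GATA factors bind the core GATA through zinc fingers, usually as WGATAR, where W is A or T and R is A or G. Introns of C. elegans genes are mostly short, and long introns, often the first, can hold enhancers that act on the host, on a transcript that starts further downstream, or on a neighbouring gene.

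The sequences of 5 of the strongest intronic regions with the GATA motif show how the motif lay around the summit. Each is 101 bases, 50 on either side of the summit, read 5′ to 3′ on the sense strand of the host from the RefSeq sequence of WBcel235 (ce11). Capitals mark AGATAA or AGATAG or TGATAA or TGATAG on either strand. The window in pkg-2 is chrIV:8530685-8530785 on the plus strand, in intron 4. That in D2023.3 is chrV:11802614-11802714 on the minus strand, in intron 5. That in mec-17 is chrIV:7985901-7986001 on the minus strand, in intron 1. That in egl-27 is chrII:6842822-6842922 on the plus strand, in intron 10. That in arrd-10 is chrII:12942663-12942763 on the plus strand, in intron 6. The pkg-2 window has 1 motif match, and the arrd-10 window has 4, of which 2 overlap.
pkg-2: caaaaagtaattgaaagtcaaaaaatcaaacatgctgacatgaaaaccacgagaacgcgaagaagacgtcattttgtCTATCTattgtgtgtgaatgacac
D2023.3: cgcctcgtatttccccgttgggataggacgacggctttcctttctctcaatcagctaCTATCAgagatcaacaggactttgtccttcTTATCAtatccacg
mec-17: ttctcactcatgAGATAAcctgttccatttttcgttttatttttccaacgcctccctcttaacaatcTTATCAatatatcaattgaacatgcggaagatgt
egl-27: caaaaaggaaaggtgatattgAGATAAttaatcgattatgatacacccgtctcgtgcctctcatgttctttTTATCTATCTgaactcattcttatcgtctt
arrd-10: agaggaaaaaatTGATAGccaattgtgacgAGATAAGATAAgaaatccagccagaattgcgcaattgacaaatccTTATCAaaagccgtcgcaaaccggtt

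Windows with the motif in hosts that act in cuticle, moulting or developmental timing are shown because these are known functions of the epidermis. The mua-3 window is chrIII:10170427-10170527 on the plus strand, in intron 13. The grl-15 window is chrIII:12234116-12234216 on the minus strand, in intron 2. The dpy-31 window is chrIII:7203367-7203467 on the plus strand, in intron 2. The lin-42 window is chrII:1242261-1242361 on the minus strand, in intron 3. In grl-15 both matches read TTATCT on the sense strand, and in the other 3 hosts there is 1 match each.
mua-3: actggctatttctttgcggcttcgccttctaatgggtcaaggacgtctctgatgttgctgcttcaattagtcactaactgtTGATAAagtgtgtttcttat
grl-15: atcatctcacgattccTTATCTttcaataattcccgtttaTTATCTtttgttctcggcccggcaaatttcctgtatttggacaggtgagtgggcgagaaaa
dpy-31: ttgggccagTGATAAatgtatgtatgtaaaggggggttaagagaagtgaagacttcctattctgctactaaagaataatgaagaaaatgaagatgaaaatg
lin-42: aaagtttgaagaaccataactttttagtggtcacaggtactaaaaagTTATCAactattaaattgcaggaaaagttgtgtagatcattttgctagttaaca

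Other summits had no GATA motif and held a GA repeat, marked in capitals in the next sequences as AGAGAG on either strand. The atf-7 window is chrIII:4494739-4494839 on the minus strand, in intron 2, and belongs to the second strongest intronic region. The sms-1 window is chrIV:11491462-11491562 on the minus strand, in intron 2.
atf-7: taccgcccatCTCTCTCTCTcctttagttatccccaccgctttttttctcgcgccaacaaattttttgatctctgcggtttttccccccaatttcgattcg
sms-1: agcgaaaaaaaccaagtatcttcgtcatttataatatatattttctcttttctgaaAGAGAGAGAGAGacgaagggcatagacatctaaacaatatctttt

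The pooled signal of the intronic regions ran from 102.9 down to 29.9 with a median of 34.34, on the authors' scale, and these values chose the regions, so they are given as description. Of the 330, 45 were also in the authors' list of regions that passed an irreproducible discovery rate (IDR) threshold, against a background of 18.7% of the 1500 strongest regions. All regions were 356 bp wide, and 5 overlapped a stronger intronic region. The weakest, at rank 1499 with a signal of 29.9, lay in introns of both Y48G8AL.13 and herc-1, and the first region left out, at rank 1503 with a signal of 29.89, lay in intron 3 of sqrd-1 and had no motif.

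The 25 strongest intronic regions, down to a signal of 52.07 at pooled rank 185, lay in 23 hosts of many kinds. The first was in pkg-2, a cGMP-dependent protein kinase gene (WBGene00015650), with a pooled signal of 102.9 at rank 12. Its signal was 61.99 at rank 17 in replicate 1 and 34.10 at rank 49 in replicate 2. The second was in atf-7, a bZIP factor gene of the innate immune response, with a pooled signal of 89.13, 48.22 at rank 56 in replicate 1 and 39.33 at rank 23 in replicate 2. Both hosts were thus near the top of both replicate lists, which hold 30000 regions each. The region in D2023.3 had a pooled signal of 78.64, with 47.70 in replicate 1 and 31.55 in replicate 2. The region in mec-17, which encodes an alpha-tubulin acetyltransferase of the touch receptor neurons, had 76.66, with 40.97 and 30.91. The region in C06E7.4 had 76.18, with 39.77 and 35.39. These 3 were within the first 111 ranks of replicate 1 and the first 83 of replicate 2.

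Other strong intronic regions were much higher in the ranking of 1 replicate. In anc-1, a giant protein that anchors nuclei to the cytoskeleton, the region at pooled rank 65 was at rank 2 in replicate 2 with a signal of 51.44 and at rank 375 in replicate 1 with 26.48. In pqn-41, a polyglutamine protein gene known for its part in the death of the linker cell, the region at rank 105 was at rank 27 in replicate 1 with a signal of 57.86, and replicate 2 had no summit within 100 bp of it. Of the 25, 19 had a summit within 100 bp in both replicate lists. The others were in egl-27, pgph-2, pqn-41, zip-2, F58G1.7 and ccm-2. A missing summit did not always mean a missing region. In egl-27 the region at pooled rank 71 had a signal of 50.32 at rank 47 in replicate 1. In replicate 2 the nearest summit was 172 bp away, and the best rank of an overlapping region was 59. In pgph-2 the overlapping region of replicate 1 was at rank 131. The regions of pqn-41 and F58G1.7 overlapped none in replicate 2.

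The remaining hosts of the 25 included genes for regulation of transcription and for housekeeping functions. The former were nhr-23, a nuclear hormone receptor that drives moulting, zip-2, a bZIP factor of the response to infection, klf-1, a Krüppel-like factor, and let-526, a subunit of the SWI/SNF chromatin remodeller. The latter were eif-2Bdelta, a subunit of a translation initiation factor, psd-1, a phosphatidylserine decarboxylase, epg-9, an autophagy gene, aakg-1, a subunit of the AMP-activated kinase, and tbc-6, with a Rab GTPase-activating domain. The list was completed by F42A8.1, F48E8.2 and arrd-10, an arrestin-domain gene. The motif was present within 50 bp of 12 of the 25 summits, namely those in pkg-2, D2023.3, mec-17, egl-27, pgph-2, F42A8.1, tbc-6, F48E8.2, aakg-1, klf-1 and arrd-10 and the weaker of those in pqn-41, and absent at those in atf-7, C06E7.4, anc-1, zip-2 and both in nhr-23.

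Over all 330, a summit of replicate 1 lay within 100 bp of 289 and one of replicate 2 within 100 bp of 278. Both replicates had one at 238, and neither had one at 1. Any overlapping region was present for 322 in replicate 1 and 307 in replicate 2. The median signal at the matched summits was 17.83 in replicate 1 and 18.7 in replicate 2, and the median rank was 1333 and 1520.5. Within the 1500 strongest of each replicate's own list there were 157 and 139 matches, with 39 in both and 73 in neither. Most of the intronic regions therefore had a summit in both long lists but were among the strongest of at most 1 of them. Both replicate lists stop at exactly 30000 regions, at signals of 6.452 and 8.473, so an absent summit does not show that there was no signal below these values. The pooled list was made from both libraries, so these counts describe the lists and are no test.

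**Figure D1:**
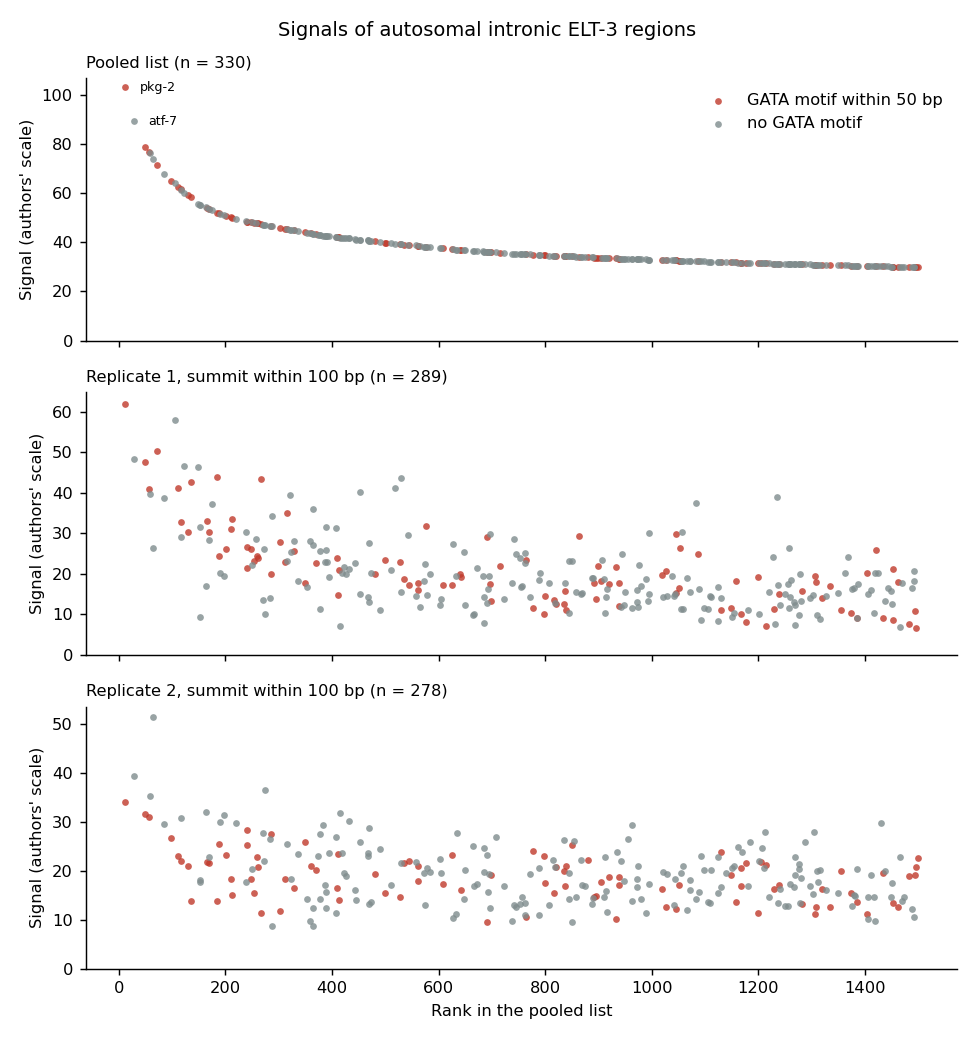
Signal of each of the 330 intronic regions (y axis, the authors' scale) against its rank in the pooled list (x axis), in the pooled list and at the nearest summit within 100 bp in replicate 1 (289 regions) and replicate 2 (278 regions). Points are regions, red where the GATA motif lies within 50 bp of the summit; the pooled signal falls from 102.9 to 29.9 by construction, while the replicate signals scatter from 6.54 to 61.99 and from 8.77 to 51.44.

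More summits than flanking windows of the intronic regions held the GATA motif. WGATAR lay within 50 bp of 107 of 330 summits (32.4%, 95% Wilson interval 27.6 to 37.65) and in 68 equally wide windows placed 500 bp to the right (20.6%, 16.59 to 25.3). For comparison, it was in 23.9% of windows at all pooled summits and in 18.1% of 251178 adjoining windows of 101 bp that cover the usable introns. It was in the summit window alone for 78 regions, as in pkg-2, and in the flanking window alone for 39 (two-sided exact McNemar test, p = 0.0003962). Regions are not replicates, and this p describes the spread over regions within 1 experiment. The flanking window was centred in an intron for 226 regions, and the difference was 34.51% against 21.24% among these (exact McNemar p = 0.00122, a subset added once the values were known). The call rested on replicate 1: with the rule applied to the list of replicate 2 alone, the shares were 26.87% and 23.28% (exact McNemar p = 0.3232), and with replicate 1 alone 38.89% and 23.53% (p = 7.307e-05).

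The strong intronic regions also held the motif more often than the weaker ones. In the weaker set 1075 of 4955 had it (21.7%), which is 10.73 percentage points lower (95% interval of the difference 5.762 to 16.07; two-sided Fisher's exact test, adjusted p = 4.608e-05 over 3 comparisons by Benjamini-Hochberg). With replicate 2 alone the difference was 6.745 points (exact adjusted p = 0.01059) and with replicate 1 alone 18.5 points. The sets also differed in base composition: the windows held 36.88 ± 8.677% GC (SD over regions) in the strong intronic regions and 32.91 ± 7.958% in the weaker ones. Sequence marked as repeat or low-complexity in the reference made up 28.89% and 43.06% of the windows on average. The part of both in the motif difference was not tested.

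Against strong regions elsewhere the motif share did not differ detectably. It was 29.8% in 383 autosomal promoter regions of the 1500 strongest, 2.659 points lower (interval of the difference -4.124 to 9.459; exact adjusted p = 0.4654). In 315 autosomal intergenic regions of the same list it was 37.1%, and the intronic minus the intergenic share was -4.719 points (interval of the difference -12 to 2.62; exact adjusted p = 0.3234). Neither interval leaves out differences of several points.

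**Figure D2:**
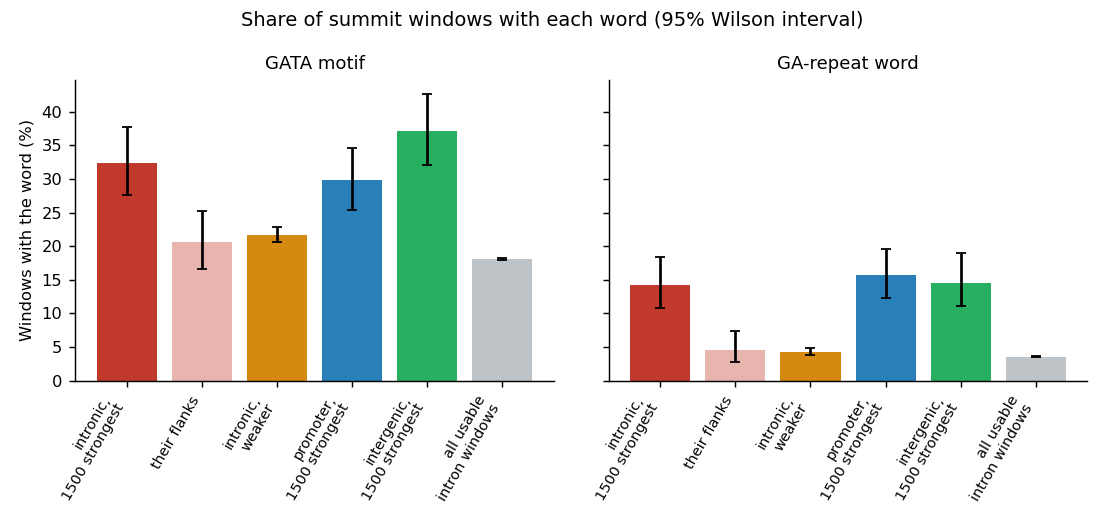
Share of 101-bp windows (y axis, percent) with the GATA motif and with a 6-letter GA-repeat word, in the 330 intronic regions, their flanks, weaker intronic regions, promoter and intergenic regions of the 1500 strongest, and all usable intron windows. Bars are shares with 95% Wilson intervals; the GATA motif is in 32.4% of the intronic regions, 20.6% of the flanks and 21.7% of the weaker regions, and the GA-repeat word in 14.2%, 4.55% and 4.34%.

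Matches to the motif gathered within about 200 bp of the summits. In bins of 50 bp the strong intronic regions held 26.06 matches per 100 regions in the bin centred 50 bp left of the summit, 22.42 at the summit and 21.21 in the bin 50 bp to the right. Beyond 200 bp the bins held between 9.09 and 15.76. In the weaker intronic regions all bins held between 10.66 and 13.76 matches. Most regions with the motif had a single match: 78 had 1, 21 had 2, 6 had 3 and 2 had 4, of which arrd-10 and hlh-30 are the hosts. Among the 4 words, TGATAA was in 56 summit windows (16.97%), AGATAA in 31 (9.39%), TGATAG in 28 (8.48%) and AGATAG in 16 (4.85%). In the 92 regions with matches on 1 strand only, the motif read along the host's sense strand in 45 and against it in 47 (exact binomial p = 0.917). A preferred orientation relative to the host was thus not detectable.

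**Figure D3:**
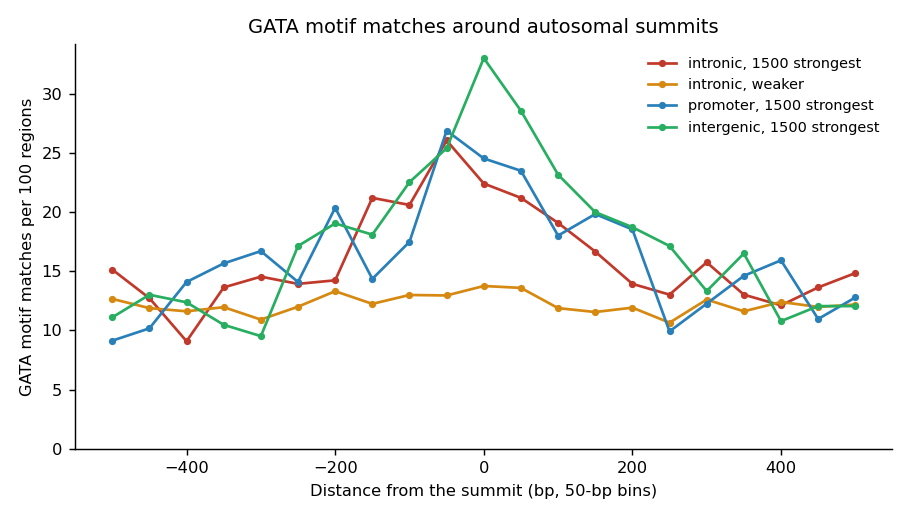
GATA motif matches per 100 regions (y axis) in 50-bp bins by distance from the summit (x axis, bp along the chromosome) for 330 intronic, 383 promoter and 315 intergenic regions of the 1500 strongest and 4955 weaker intronic regions, all autosomal. Lines join bin values; the strong intronic regions hold 9.09 to 15.76 beyond 200 bp and 26.06 next to the summit.

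The share with the motif was compared among subsets of the intronic regions, in 4 comparisons added after the data were seen and adjusted together. Of the 45 regions that passed the IDR threshold 23 had the motif (51.11%), against 29.47% of the other 285 (Fisher's exact test, adjusted p = 0.01155). By pooled rank it was 25.49% in ranks 281 to 500, 30.7% in the next 114 regions down to rank 1000 and 36 of 120 in the last, down to rank 1500. The highest share was thus within the first 280 ranks, which make up the IDR list. Of the 39 regions among the 1500 strongest of both replicates 51.28% had it, against 29.9% of the rest (exact adjusted p = 0.01378). The IDR list and this subset both follow the signals that chose the regions. Their p-values therefore describe the motif share along the ranking and do not support each other. Regions in a first intron, such as that of mec-17, had the motif in 34.31% and the others in 31.58% (exact adjusted p = 0.7028, interval of the difference -7.842 to 13.92 points). Introns were numbered along the transcript with the longest coding sequence, and some of the others lie in a first intron of another transcript.

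Chromosome I stood apart in number and in motif share. It held 36.06% of the 330 intronic regions, 21.58 per Mb of usable intron, against 9.018 to 13.57 per Mb on the other autosomes. Left of its midpoint lay 97 of them, but the share of usable intron there is not given here. The weaker intronic regions were also densest there, with 256.2 per Mb against 162.5 to 198.8. On this chromosome 27 regions had the motif (22.69%), against 80 of 211 on the other autosomes (37.91%; Fisher's exact test, adjusted p = 0.01155). The weaker intronic regions had their lowest motif share there too, 18.9% against 21.84% to 25.18%, so the low share is not particular to the strong regions. The hosts on chromosome I with 3 or more regions were zfh-2, nhr-23, unc-73 and anc-1. The motif was at 1 of 4 regions in zfh-2, at 1 of 4 in nhr-23 and at none in unc-73 and anc-1.  Without this chromosome 211 regions were left, and the motif shares at summits and flanks were 37.91% and 20.85% (exact McNemar p = 2.569e-05).

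GA-rich and GATA words stood out when all 2080 6-mers, read without regard to strand, were compared between summits and flanks. Of these, 3 (0.144%) passed the threshold of 0.05 after Benjamini-Hochberg adjustment, and all 3 were more frequent at summits. AGAGAG was in 14.24% of summit windows and 4.545% of flanks (exact McNemar adjusted p = 0.01533). CAGAGA was in 13.03% and 3.636% (exact adjusted p = 0.01533), and the letters of both words can overlap. CTTATC, the reverse complement of GATAAG and so part of the GATA motif when preceded by A or T, was in 12.42% and 4.242% (exact adjusted p = 0.04558). This count depends strongly on the setting: it was 0 with replicate 2 alone, 7 with replicate 1 alone and 8 without chromosome I.

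The GA repeat was found at summits with and without the GATA motif. Of the 330 regions 89 had the GATA motif without AGAGAG, 29 had AGAGAG without the GATA motif, as in atf-7, 18 had both and 194 had neither. The GATA motif was thus in 38.3% of the regions with AGAGAG and in 31.4% of those without it, values that were not compared by a test. The share with AGAGAG, 14.2%, was close to the 15.7% in promoter and 14.6% in intergenic regions of the 1500 strongest, and these values were not compared by a test. In weaker intronic regions it was 4.34%, and in all usable intron windows 3.56%. GC content averaged 36.88% at summits and 37.38% in flanks, with 152 regions higher at the summit and 168 lower (exact sign test, p = 0.4018).

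Intronic regions were more often in the first intron than weaker ones were. Introns were numbered along the transcript with the longest coding sequence that holds the summit in an intron. The first intron held 102 of 330 (30.91%), against 24.08% of the weaker regions (Fisher's exact test, adjusted p = 0.00663 over 3 comparisons of position). It made up 21.45% of usable intronic bases. These were counted only along each gene's transcript with the longest coding sequence, so that share is not fully comparable. Intron 2 held 56, intron 3 held 26, intron 4 held 36, intron 5 held 22, and 88 lay in intron 6 or later. Hosts with a strong region in intron 1 included mec-17, nhr-23, pgph-2, C06E7.4 and zip-2. Some regions with a higher number, as in egl-27 and atf-7, lie in the first intron of another transcript. By the lowest number over all transcripts, 146 of 330 were in a first intron (44.24%), against 33.34% of the weaker regions (exact p = 7.16e-05). With replicate 2 alone the first-intron share was 25.07% against 24.01% (exact p = 0.6471), and with replicate 1 alone 31.7% against 24.63% (exact p = 0.006827). Among the strongest regions the excess was not detectable: it was 2.628 percentage points from the 500 strongest (exact p = 0.5502) and -0.05937 points in the IDR list (exact p = 1).

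**Figure D4:**
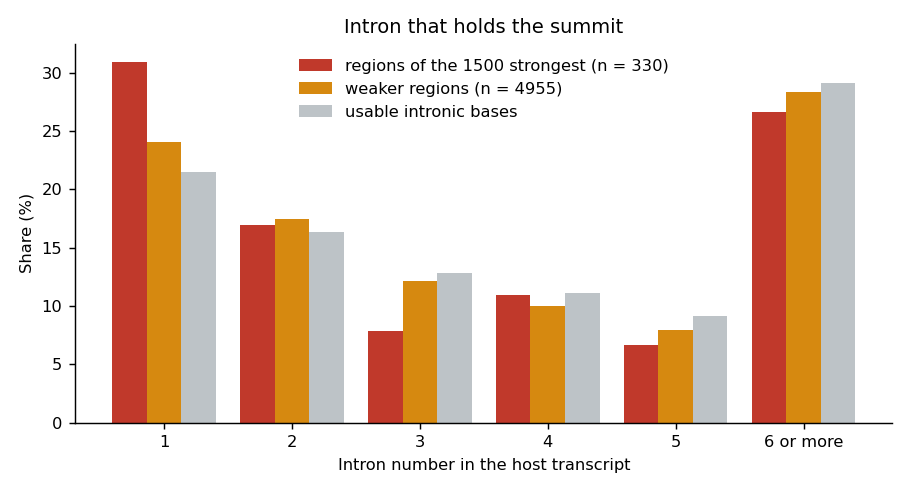
Share (y axis, percent) of the 330 intronic regions, the 4955 weaker intronic regions and the usable intronic bases by the number of the intron that holds the summit (x axis). Intron 1 has 30.91% of the intronic regions, 24.08% of the weaker ones and 21.45% of usable bases. Usable bases are counted only along each gene's transcript with the longest coding sequence.

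The introns that held a summit ranged from 46 to 20948 bp with a median of 1761 bp. Summits lay between 248 and 36754 bp downstream of the host's 5′ end, the latter in dkf-2, a protein kinase D gene, with a median of 3351 bp. In transcripts with more than 1 intron, 198 of 327 summits were in the longest intron. No such share is given here for the weaker regions or for usable bases, so this count does not show a preference. The summit fell in the promoter window of a transcript with an internal start for 61 of 330 regions (18.48%), among them those in atf-7, zip-2 and eor-1. The share was 12.11% of the weaker ones (Fisher's exact test, adjusted p = 0.004155, a comparison added once the values were known). An internal start lies inside any protein-coding gene, the host or a neighbour. The 61 are intronic by the 5′ ends of genes and promoter regions by the 5′ end of another transcript.

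Noncoding genes were near 42 of the 330 summits (12.73%), within 200 bp, against 7.851% of the weaker intronic regions (Fisher's exact test, adjusted p = 0.00508). The share was 9.851% against 7.933% with replicate 2 alone (exact p = 0.2155). By annotated class, 28 regions were near a noncoding RNA gene of no further class, as in C06E7.4, anc-1, let-526 and aakg-1, and 7 near a piRNA gene, as in eps-8 and atln-2. Small nuclear and small nucleolar RNA genes were near 3 regions each, antisense RNA genes near 3, and a lincRNA and a tRNA gene near 1 each. The 2 overlapping regions of F58G1.7, with pooled signals of 55.62 and 38.33, were both near the same annotated small nuclear RNA gene.

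Several hosts held more than 1 strong intronic region: 41 hosts held 96 of them, and 22 of these hosts had at least 1 with the motif. Those with 4 were pkg-2, nhr-23, zfp-1, zfh-2 and hlh-30. In pkg-2 (chromosome IV, 8520894 to 8538187) the summits spanned 7329 bp of 2 introns, with pooled signals of 51.51, 50.03, 102.9 and 47.72 from 5′ to 3′, and all but the first had the motif. In replicate 1 these were 20.13, 33.5, 61.99 and 24.35, and in replicate 2 they were 29.93, 15.03, 34.10 and 22.8. The region with the highest pooled signal was thus also the highest of the 4 in each replicate.

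In nhr-23 (chromosome I, 7214745 to 7221299) the summits lay 821, 1629, 2617 and 4508 bp from the 5′ end, with pooled signals of 36.19, 54.2, 67.71 and 45.93, and the motif was present only at the last. In replicate 1 the signals were 7.834, 17.08, 38.79 and 27.9, and in replicate 2 they were 24.75, 32.09, 29.67 and 11.73. The order of the 4 thus differed between the replicates. The summits 1629 and 4508 bp from the 5′ end were also in promoter windows of transcripts that start inside the gene. Of the 4 regions in zfp-1, a gene for a PHD-finger protein of the AF10 family, none had the motif, and 3 lay in promoter windows of internal transcript starts. The regions of zfh-2, a zinc-finger homeodomain gene, had pooled signals between 30.99 and 36.05, and those of hlh-30, the worm homologue of TFEB and a regulator of autophagy, between 32.25 and 33.29.

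**Figure D5:**
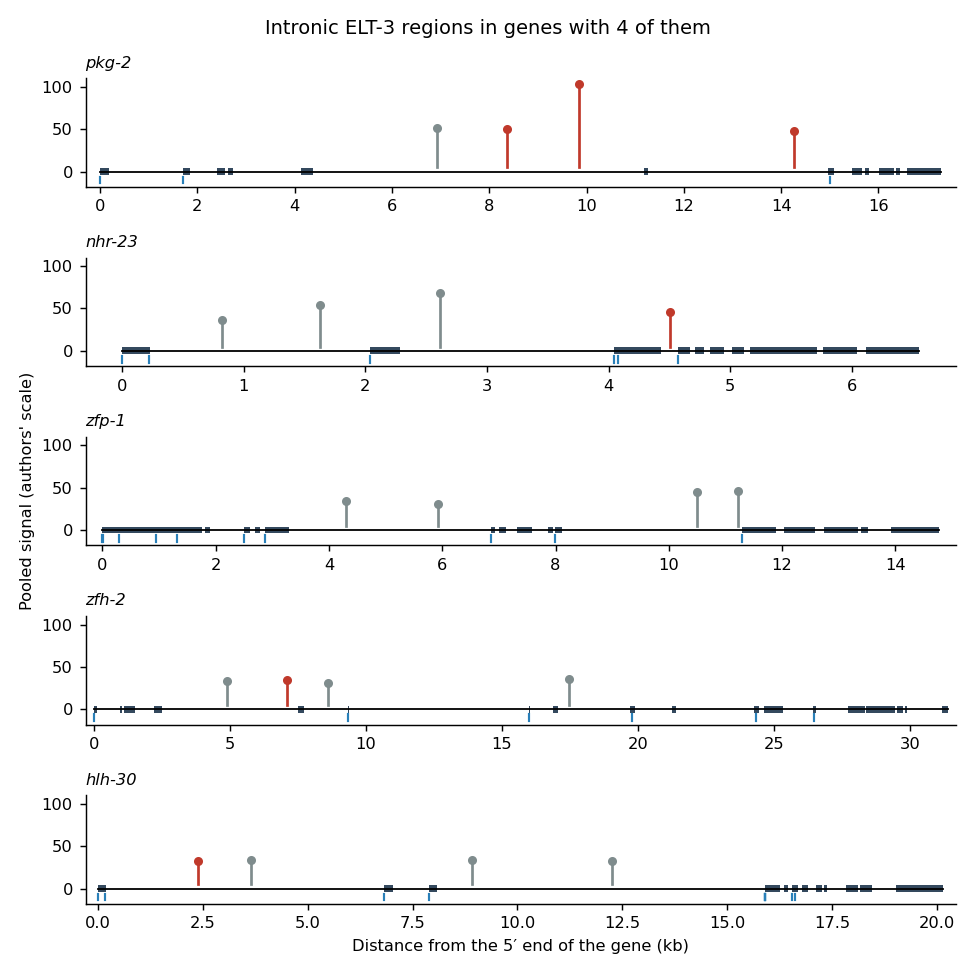
Position of each intronic region along the 5 hosts with 4 regions (x axis, kb from the 5′ end of the gene; dark boxes are exons of any transcript, blue ticks below the line transcript 5′ ends). Stems give the pooled signal (y axis, the authors' scale), red with the GATA motif within 50 bp and grey without; the tallest is the pkg-2 region of 102.9, and zfp-1 has none in red.

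There were 4 hosts with 3 regions, namely anc-1, pqn-41, mnk-1, a kinase acting downstream of MAP kinases, and unc-73, a guanine nucleotide exchange factor of axon guidance. The other 32 had 2 each. They included atf-7, daf-16, skn-1, nhr-21 and lsy-22, which are genes for regulation of transcription. Others were the moulting gene mltn-9, the timing gene lin-42, the polarity kinase gene par-1, the cadherin gene cdh-7, the afadin gene afd-1, the muscle gene unc-89 and the Wnt receptor gene mig-1. They also included pgph-2, F58G1.7, let-526, aakg-1, Y48C3A.5, ccch-1, sms-1, akap-1, rpoa-1, E01G4.3, tres-1, ifbp-1, Y18H1A.15, miz-1, itx-1, ubr-4, nadk-2, cwf-19L2, Y73E7A.8 and aass-1. In pgph-2, F58G1.7, daf-16 and aass-1 the 2 summits lay 202 to 232 bp apart, so the regions overlap and may not be separate sites. The same holds for 2 of the 3 regions of unc-73, at pooled ranks 867 and 1071, which overlap in intron 26.

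Hosts had longer usable introns than other genes. The median was 4356 usable bases in hosts and 695 in all 15059 genes. A gene with under 1000 usable bases was a host in 0.2411% of cases, and a gene with 10000 or more in 16.08%. The shares of the gene lists below are therefore to be read with the usable length of each list as well as with the background of 1.83%, and no test was run on them.

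Among regulators of epidermal development, 3 of 21 genes with usable introns were hosts (14.3%, median usable length 2865 bp), namely nhr-23, egl-27 and lin-42, with 7 regions in all, 3 of them with the motif. The region in egl-27, a homologue of the metastasis-associated proteins with a GATA-like zinc finger, had a pooled signal of 71.36 and 3 motif matches. The gene lin-42, the worm homologue of period that times the moults, had regions with pooled signals of 35.29 and 31.03. In replicate 1 these were 24.78 and 15.63, and in replicate 2 they were 12.55 and 13.19. The weaker of the 2 was the one with the motif. Of 8 GATA factors and related genes only egl-27 was a host.

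Structural genes of the epidermis were hosts too. Of 103 apical matrix and moulting genes 6 were hosts (5.83%, median usable length 1724 bp), and 4 of their 7 regions had the motif. They were mltn-9 and mlt-10 of the moulting group, lrp-1, an LDL-receptor-related protein needed for moulting, cutl-6, a cuticlin-like gene, dpy-31, a protease that processes collagen, and mua-3, a transmembrane protein that holds the epidermis to the cuticle. The regions in mltn-9 had pooled signals of 47.2 and 33.62, with 13.43 and 18.3 in replicate 1 and 27.68 and 17.81 in replicate 2. The region in mua-3 had a pooled signal of 46.59, with 20.02 in replicate 1 and 27.48 in replicate 2. That in dpy-31 had 33.49, with 17.42 and 18.80. Of the 113 cuticle collagen genes, whose usable introns were shorter in the median than those of all genes, col-52 and col-72 were hosts (1.77%), with signals of 31.39 and 31.28 and no motif.

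Of 70 hedgehog-related and patched-related genes, many of which act in the epidermis and its cuticle, 4 were hosts (5.71%). These were grl-15, grl-16, ptr-11 and ptr-12. The grl-15 region had a pooled signal of 45.33 with 35.0 at rank 163 in replicate 1, and replicate 2 had its nearest summit 159 bp away. An overlapping region of replicate 2 was there at rank 20162. The regions in ptr-11 and ptr-12 had summits within 100 bp in replicate 2 alone, with signals of 23.87 and 26.24. In replicate 1 the nearest summit was 168 bp away for ptr-12, and the best rank of an overlapping region was 59 for ptr-12 and 11839 for ptr-11. In replicate 2 a stronger region, at rank 94, also overlapped the ptr-12 region. None of 10 epidermal antimicrobial peptide genes and none of 37 ribosomal protein genes was a host, and their median usable lengths were 78 and 55 bp.

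Of 51 adhesion and basement membrane genes, which have long introns with a median of 4514 usable bp, 8 were hosts (15.7%). They were anc-1, which is on this list for its anchorage of nuclei, afd-1, cdh-7, cdh-12, gon-1, a metalloprotease of tissue shape, mua-3, tln-1, which encodes talin, and unc-52, which encodes perlecan. The unc-52 region had a pooled signal of 44.62, with 18.27 in replicate 1 and 23.39 in replicate 2. Of their 12 regions 3 had the motif. Protein kinases were hosts in 10 of 113 cases (8.85%, median usable length 3636 bp), namely pkg-2, mnk-1, par-1, unc-89, egl-4, dkf-2, unc-43, lin-45, src-2 and csk-1. The egl-4 region is in another cGMP-dependent kinase gene, 11479 bp from the 5′ end, with a pooled signal of 38.16, a signal of 31.81 in replicate 1 and the motif, and no region of replicate 2 overlapped it.

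Of 243 nuclear hormone receptor genes 8 were hosts (3.29%, median usable length 748 bp): nhr-19, nhr-21, nhr-23, nhr-31, nhr-34, nhr-43, nhr-46 and nhr-85. Only 1 of their 12 regions, in nhr-23, had the motif. Homeobox hosts were ceh-45, unc-62, a Meis-type gene, and zfh-2 (3 of 67, 4.48%, median usable length 1626 bp). A list of other transcription factors and regulators of transcription by name was added after the hosts were seen. Of its 148 genes 16 were hosts (10.8%, median usable length 1264 bp) with 29 regions, 7 of them with the motif. These hosts included atf-7, zip-2, klf-1, let-607, hlh-30, zfp-1, the FOXO gene daf-16, the Nrf-type gene skn-1 and the ETS gene lin-1. In daf-16 the regions had pooled signals of 43.44 and 29.93, with 27.05 and 20.69 in replicate 1, and neither had the motif. Replicate 2 had a signal of 12.36 at rank 10707 for the first and no summit within 100 bp for the second. The rest of the list's hosts were attf-4, eor-1, lsy-22, tlp-1, zfh-2, zip-6 and ztf-4.

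Of signalling genes, 2 of 27 of the Wnt pathway were hosts (7.41%, median usable length 1981 bp), the ligand gene lin-44 and the receptor gene mig-1. Of the TGF-beta and insulin pathways, 2 of 25 were hosts (8%, median usable length 2177 bp), daf-16 and daf-5. Among marker genes of other tissues the hosts were few in number, on short lists, and their shares of the neuron, muscle and pharynx lists were above the background of 1.83%. For neurons these were 3 of 24 (12.5%, median usable length 4506 bp), mec-17, unc-13 and unc-73, for body wall muscle 1 of 13 (7.69%, median usable length 6500 bp), unc-89, and for the pharynx 1 of 9 (11.1%, median usable length 1552 bp), abu-14. None of 12 intestinal markers (median usable length 866 bp) and none of 20 germline markers (283 bp) was a host. The share of each list was based on few genes, and the lists differ in intron length, so their order is not a ranking of tissues.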

How the data were processed

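ChIP-seq for an ELT-3 fusion in whole L3 larvae was deposited as lists of regions for 2 biological replicates and for the pool of both. The pooled list is labelled as peaks and background, used as input for IDR. By the deposited README, alignments of 1 replicate with a control gave each replicate list, alignments of both gave the pooled list, and the IDR list was derived from these. The signal of each region is the authors' own deposited value, on an unstated scale. The aligner, the peak caller, the IDR threshold and the read depth are also not given in the sources used here, so intervals cover counting error over regions only. Lists on ce11 were used, and lists on ce10 were not, since no coordinate was converted. Summits were placed with Ensembl release 115 gene models on WBcel235, and coordinates are 1-based.

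Computed here, with Python 3.11.15, numpy 2.4.6, pandas 2.3.3 and scipy 1.17.1, were the selection of regions, motif matches, exact McNemar, Fisher, binomial and sign tests (all two-sided), Wilson intervals, and intervals of differences of shares by Newcombe's method from these. The 6-mer comparison was tested on simulated data. The members, gene lists and tests were chosen with earlier results of these data known, and in the gene lists misplaced names were removed and a few missing ones added (csk-1 among the hosts) after the hosts were seen. Regions were named if their host had one of the 25 strongest regions, had 2 or more, or was on a gene list other than the tissue markers, or if they were next to rank 1500. Other genes, such as eps-8 and atln-2, and the tissue markers were named after their values were seen. Alternatives were other numbers of strongest regions, each replicate alone, other windows, flanks, motifs and promoter definitions, and, added after the data were seen, leaving out chromosome I, promoter windows at every transcript 5′ end, and 1 region per host.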

Additional observations from a re-analysis of the deposited data

How the results depend on the processing

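Of 113 recomputed values with a test, 90 kept their direction and their side of the threshold, and of 30 recomputed counts 12 stayed within 1.5 times of the reported count. For the others the cause was not tested. The motif excess over weaker intronic regions kept both under all 15 alternatives (6.745 to 28.99 percentage points, exact adjusted p up to 0.01059). The number of intronic regions was 96 from the 500 strongest, 210 from the 1000 strongest, 669 from the 3000 strongest, 45 from the IDR list and 211 without chromosome I. The excess over flanks was 9.375 points from the 500 strongest (exact p = 0.2221), and with 1 replicate left out 3.582 to 15.36. The difference from promoter regions was -0.6244 points with every transcript's 5′ end, -0.2627 with TGATAA alone, and -1.799 to 6.669 with 1 replicate left out. That from intergenic regions was -5.884 from the 3000 strongest (exact adjusted p = 0.03893). The first-intron excess was 2.628 points from the 500 strongest, -0.05937 in the IDR list, and 1.068 to 7.07 with 1 replicate left out. The noncoding excess was 5.223 in the IDR list (exact p = 0.2642), where 45 regions limit the test, and 1.918 to 4.235 with 1 replicate left out. The sense-strand share was 53.33% from the 1000 strongest, 50% in the IDR list, 56.34% with every transcript's 5′ end and 50.67% with 1 region per host (exact binomial p of 0.2414 or more throughout). Summit minus flank GC content was 0.8628 points from the 1000 strongest, 2.939 from the 500 strongest, 3.96 in the IDR list, -1.624 from the 3000 strongest, 1.788 without chromosome I, 0.2442 with windows of 100 bp, and -2.828 to 0.495 with 1 replicate left out, so it has no settled direction. The number of 6-mers past the threshold was 5, 1 and 7 from the 1000, 500 and 3000 strongest, 0 in the IDR list, 8 without chromosome I, 0 with every transcript's 5′ end, 0 with 1 region per host, 0 and 14 with windows of 25 and 100 bp, 1 with the left flank, 9 by Fisher's exact test without the pairing, and 0 to 7 with 1 replicate left out. The alternatives without chromosome I, with every transcript's 5′ end and with 1 region per host were chosen after the data were seen. The unknown read depth leaves the precision of single signals unknown.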
